A study of Homo sapiens with 8 samples.

Results

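The direct NOTCH effector genes are 8 genes that the NOTCH transcription complex switches on at their own promoters: HES1, HES4, HES5, HEY1, HEY2, HEYL, DTX1 and NRARP. They were taken as every probe set whose gene symbol in the deposited workbook is exactly one of these names, which gave 13 probe sets of 54613, and 8 genes of 20307 with a probe set of their own. HES1 had 3 probe sets, HEY1, HEY2 and HEYL had a pair each, and HES4, HES5, DTX1 and NRARP had 1 each. RNA came from CEM, an established human line of T-cell acute lymphoblastic leukaemia, shortened to T-ALL. All samples are of this single line: 4 were transfected with a scrambled shRNA (control) and 4 with an shRNA against ZMIZ1 (knockdown), and each was read on its own array. ZMIZ1 is a PIAS-like transcriptional coactivator that can bind NOTCH1. The labels name neither a second shRNA against ZMIZ1 nor a rescue, so effects of this shRNA on other transcripts and the loss of ZMIZ1 cannot be told apart.

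NOTCH receptors are cut by γ-secretase after ligand binding or through activating mutations, and the freed intracellular domain joins the DNA-binding protein RBPJ and a Mastermind coactivator to start transcription. HES and HEY proteins are basic helix-loop-helix repressors, and HES proteins recruit TLE (Groucho) corepressors. DTX1 is an E3 ubiquitin ligase of the Deltex family, and NRARP is an ankyrin repeat protein that limits NOTCH signalling by destabilising its intracellular domain. In T-ALL, where NOTCH1 is often mutated, these genes serve as readouts of NOTCH activity.

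Promoter stretches are shown first because NOTCH acts on these genes through RBPJ, whose core motif is TGGGAA. Promoter windows from RefSeq (GRCh38.p14, 250 bases before to 50 after the annotated start) were at hand for 6 of the 8 members, all but HEY1 and DTX1. The letters TGGGAA, read on both strands, were found in 5 of these 6 windows, and at 2 or more places in 4 (HES1, HES5, HEY2 and HEYL). Among 22199 windows of protein-coding genes of the same length, 22.7% held the letters at least once and 3.5% at 2 or more places. The longer form GTGGGAA, which overlaps the shorter motif, was in 5 of the 6 windows and in 6.01% of all windows. NRARP had no match, which says only that these letters are not in this window. The CACNAG letters of the N box, a site bound by HES repressors, occurred at 4 places in the HES1 window and at 1 in the NRARP window, and in 36.9% of all windows. A match is a description of letters and was not tested for binding. The 120 bases before the start are given below for the members with a whole match there, with TGGGAA in capitals.
HES1, chr3:194136028-194136147, plus strand: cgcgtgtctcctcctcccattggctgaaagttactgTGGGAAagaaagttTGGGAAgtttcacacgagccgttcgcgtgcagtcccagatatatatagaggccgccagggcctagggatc
HES4, chr1:1000098-1000217, minus strand: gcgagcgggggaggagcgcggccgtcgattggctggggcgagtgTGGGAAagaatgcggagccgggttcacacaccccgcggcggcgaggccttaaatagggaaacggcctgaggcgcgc
HES5, chr1:2530264-2530383, minus strand: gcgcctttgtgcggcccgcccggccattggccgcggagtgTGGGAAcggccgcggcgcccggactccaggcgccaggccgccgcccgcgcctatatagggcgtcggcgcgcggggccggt
HEYL, chr1:39639644-39639763, minus strand: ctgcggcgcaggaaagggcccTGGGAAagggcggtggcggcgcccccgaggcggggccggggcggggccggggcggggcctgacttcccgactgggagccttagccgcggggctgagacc

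Counted from the start site, the matches on the gene's own strand began at -84 and -70 in HES1, -76 in HES4, -80 in HES5 and -99 in HEYL. A match of HEY2 spans its annotated start (-3 to 3), and its other match lies at -213 on the opposite strand. HES1, HES4 and HES5 all had a match that began between -84 and -70. In the values below, 1 HES1 probe set fell, HES4 was higher in the knockdown (0.40) without passing over probe sets, and HES5 lay near the level of genes that this line should lack.

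ZMIZ1, the target of the shRNA, had 11.07, 11.18, 11.19 and 11.20 in the controls and 9.76, 9.95, 10.01 and 10.07 in the knockdown arrays on its brightest probe set (log2 RMA values, where 1 unit is a doubling). The groups did not overlap. ZMIZ1 fell by 1.21 ± 0.08 (SE; adjusted p = 0.000109), to 43.2% of the control level. Its other probe sets, with control means of 5.38 and 5.25, had differences of -0.10 and -0.07 and did not pass. Array medians lay between 5.18 and 5.20 in the controls and between 5.15 and 5.18 in the knockdown, with every control above every knockdown array (p = 0.0286 by an exact permutation test), and arrays of one group correlated with r from 0.992 to 0.997 across probe sets. The signal of 18S ribosomal RNA control probe sets differed between the groups, with 13.09 ± 0.29 in controls and 10.96 ± 1.10 in the knockdown (SD, n = 4; p = 0.0286 by an exact permutation test, which can go no lower with 70 assignments). The members, their pairs and the pathway genes were therefore also fitted with this signal as a covariate, and the cell type markers were not. The 18S signal lay at 12.70 to 13.37 in the controls and at 9.85 to 12.12 in the knockdown, without overlap. The covariate therefore shares much of its course with the group, which widens standard errors. A call lost in that fit can go with a wider standard error, a smaller difference or both, and the cause was not tested. The T lineage markers CD3D (13.32 over all arrays), CD3G, LCK and ZAP70 were bright. In the controls CD7 (7.52) and CD3E (7.36) lay lower, and CD5 (5.70) and CD28 (5.20) lower still. CD2 (4.07 over all arrays) was dim. CD3E and CD28 rose, by 1.06 and 1.18, and the other 7 of 9 measured T lineage markers did not pass. Of all genes 22.1% passed and 14.7% rose. The mean over the T lineage list was 8.22 to 8.27 in controls and 8.38 to 8.52 in the knockdown. Of 6 B lineage, 6 myeloid, 4 erythroid and 5 stromal markers 1 passed, HBB (0.44). The means over these lists overlapped between the groups except for the erythroid one (4.70 to 4.84 in controls, 4.87 to 5.01 in the knockdown). The part of these differences in the results below was not tested. In cultures measured whole, fewer cells of a kind and less RNA per cell cannot be told apart.

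Across the 13 probe sets, 1 passed the test (limma, adjusted p under 0.05 over 54613 probe sets), a fall in HES1. That is 7.69% of the members beside 13.9% of all probe sets (8.38% of all rose and 5.52% of all fell). Of the 13, 7 were higher and 6 lower in the knockdown, with a median difference of 0.08 beside 0.01 over all probe sets. The groups did not overlap in 2 of the 13 (15.4%), beside 19.8% of all probe sets. With 1 probe set kept for each gene, the one of highest mean, and the adjustment over 20307 genes, HES4, HEY2 and DTX1 passed with small rises: 3 of 8 members, beside 22.1% of all genes (14.7% rose and 7.37% fell). Leaving out single arrays changed these calls: 0 of the 3 passed without control 1, control 3, control 4 or knockdown 1, and 1 of the 3 passed with any other array left out. With the 18S covariate 0 of the 3 passed. The HES1 probe set that fell is not the one with the highest mean and so did not enter that count. This alternative was chosen after seeing the data.

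**Figure D1:**
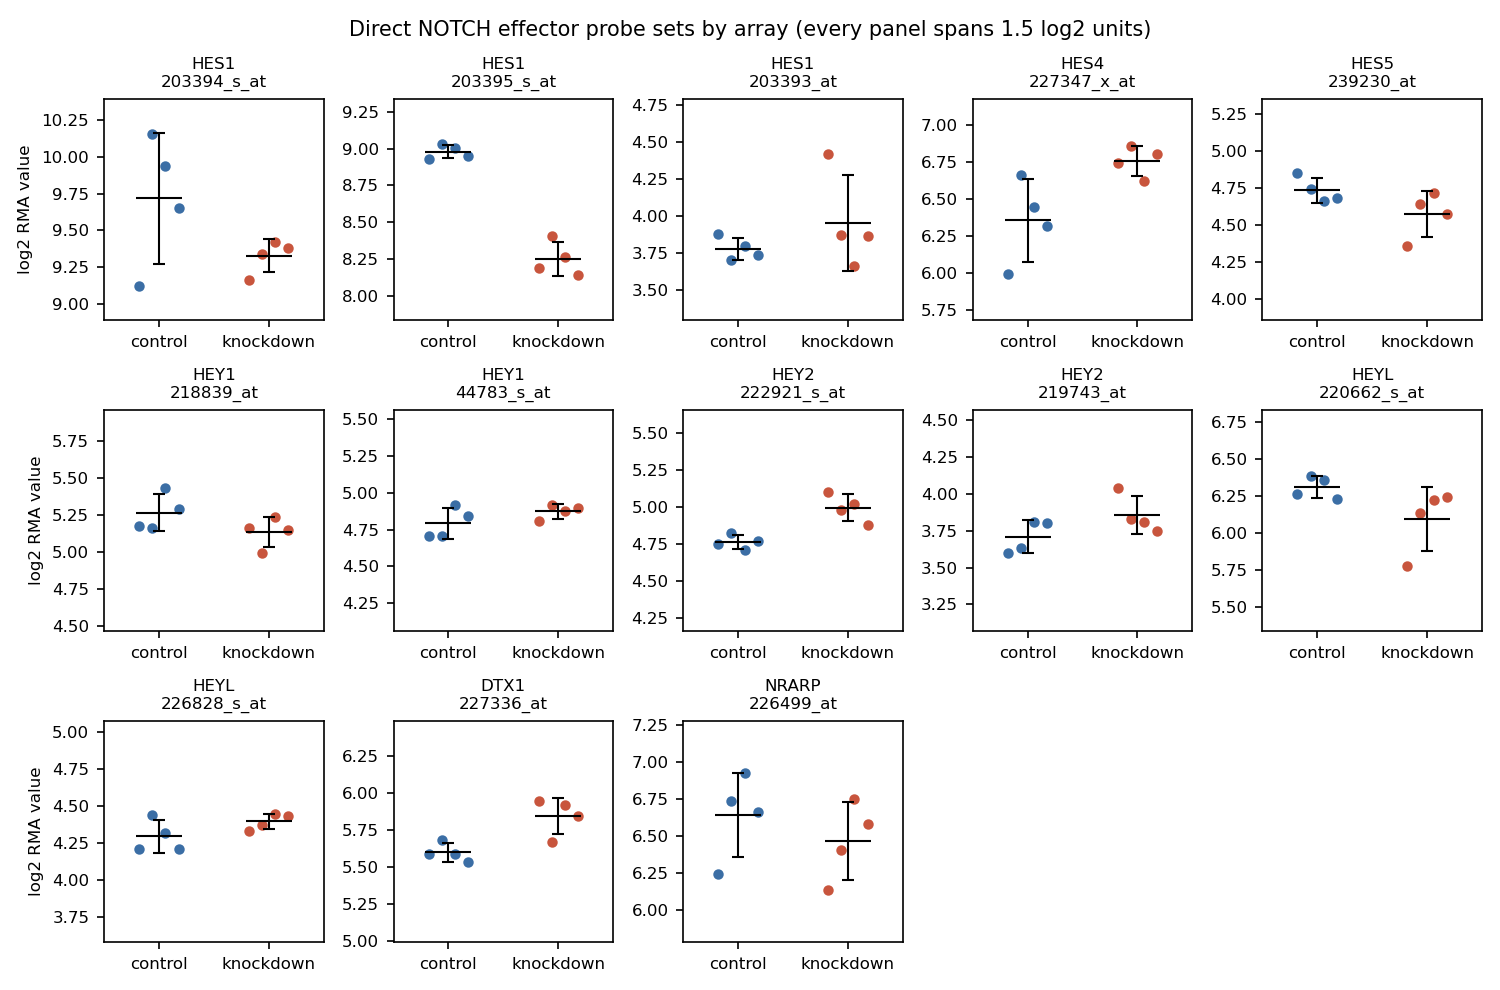
Log2 RMA values (y axis, each panel 1.5 log2 units tall) of the 13 probe sets of the direct NOTCH effector genes, with a dot for each of 4 control (blue) and 4 knockdown (red) arrays and the mean ± SD in black. The HES1 probe set 203395_s_at has both groups tight and apart, whereas 203394_s_at has 1 low control array at 9.13.

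HES1 is the main NOTCH effector of T cells and supports survival of T-ALL cells. Its probe set 203395_s_at read 8.93, 9.03, 9.00 and 8.95 in controls 1 to 4 and 8.19, 8.40, 8.26 and 8.14 in knockdown arrays 1 to 4. Every knockdown array lay below every control array. The mean went from 8.98 ± 0.05 to 8.25 ± 0.11 (SD, n = 4), a fall of 0.73 ± 0.08 (SE; confidence interval -0.90 to -0.56; adjusted p = 0.000628), to 60.4% of the control level. The authors' deposited table gives the same probe set a ratio of 0.604 with p = 2.2e-05, and 1 of the 13 members, this one, was past their looser limit of p under 0.01 and over 1.3-fold, as were 7.28% of all probe sets in that table. With the 18S signal as a covariate the difference was -0.67 ± 0.14 (SE, beside 0.08 without it) and its call ended (adjusted p = 0.109). It passed in each of the other 17 alternatives in which it was tested, with adjusted p up to 0.0157 with knockdown arrays 1 and 2 only.

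The brightest HES1 probe set, 203394_s_at, read 9.13, 10.15, 9.93 and 9.65 in the controls and 9.17, 9.34, 9.42 and 9.38 in the knockdown arrays. Controls 2, 3 and 4 lay above all knockdown arrays and control 1 lay below them all, so the groups overlapped. The difference was -0.39 ± 0.18 (SE; confidence interval -0.79 to 0.02) and did not pass (adjusted p = 0.196). Of 19 alternatives it passed in 2: without control 1 (-0.59, adjusted p = 0.0150) and with array weights (-0.50, adjusted p = 0.0433). Leaving out control 1 or weighting the arrays thus changes the call. Control 1 also had the largest actin 3' minus 5' signal of the controls, 2.37 beside 0.69 to 1.54 (the gap between probes at the ends of the actin transcript), while the highest of all was knockdown 3 at 2.61. With that measure as a covariate, added after the data were seen, the difference was -0.27 (adjusted p = 0.433).

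The third HES1 probe set, 203393_at, lay between 3.66 and 4.42 on all arrays, with a difference of 0.18 ± 0.14 (SE) that did not pass (adjusted p = 0.458) and was 0.02 without knockdown 1. Knockdown 1 was its highest array and the other knockdown arrays overlapped the controls. As a guide to such low signals, 17 probe sets of 12 liver, pancreas, muscle and skin genes, which a T cell line should lack, had a median of 4.42 over all arrays. Of these, 3 lay above 6, all of them for KRT10, which was bright here (highest mean 11.14). Those 3 are no guide to a low signal. The 203393_at signal of 3.87 was under 12 of the 17, the 3 for KRT10 included.

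**Figure D2:**
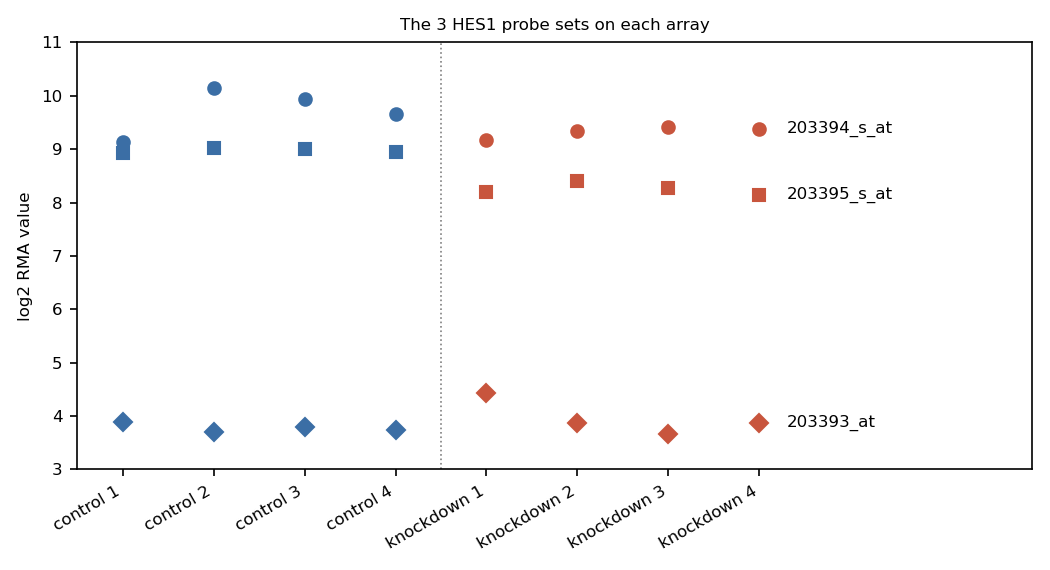
Log2 RMA values (y axis) of the 3 HES1 probe sets on each of the 8 arrays (x axis; controls blue, knockdown red). The squares (203395_s_at) step down from about 9.0 to 8.14 to 8.40, the circles (203394_s_at) start low at control 1, and the diamonds (203393_at) stay near 4.

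Whether probe sets of one gene responded differently was tested on the difference between them on each array, fitted over all 41064 within-gene pairs of the table, of which 12% were called. The members gave 6 pairs in 4 genes, and 1 was called: HES1 203395_s_at minus 203393_at went from 5.20 ± 0.11 to 4.30 ± 0.38 (SD, n = 4), by -0.91 ± 0.17 (SE; adjusted p = 0.0125). It is made of the fall of 203395_s_at (-0.73) and the 0.18 of 203393_at, which did not pass (0.67 with the 18S covariate). As 203393_at lay near the level of genes the line should lack, this difference does not show that probe sets of HES1 responded differently. The call ended under an equal-variance test (adjusted p = 0.0642), under the 18S covariate (-1.34, adjusted p = 0.218) and with knockdown arrays 1 and 2 alone (adjusted p = 0.0666). The bright HES1 probe sets did not differ from each other beyond their spread: the difference in response was 0.34, with a confidence interval of -0.07 to 0.75 (adjusted p = 0.255), which does not show that they respond alike. After each group's mean was removed they moved together with r = 0.39 over the 8 arrays. HES1 203394_s_at against 203393_at gave -0.57 (adjusted p = 0.201). The workbook gives no position of a probe set on the transcript, and a suffix of _s_at or _x_at marks probes that can match other transcripts.

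HES4, a HES relative with no mouse counterpart that is read as a NOTCH target in human T-ALL cells, went the other way. Its probe set 227347_x_at read 5.99, 6.66, 6.45 and 6.31 in the controls and 6.74, 6.86, 6.62 and 6.81 in the knockdown arrays. Knockdown arrays 1, 2 and 4 lay above all controls, and knockdown 3 lay below control 2. The difference was 0.40 ± 0.13 (SE; confidence interval 0.12 to 0.69; adjusted p = 0.0613 over probe sets and 0.0354 over genes). It passed over probe sets without control 2 (0.51, adjusted p = 0.0225) and not without any other single array. Over genes, the HES4 call was lost for 6 of the 8 arrays left out in turn (adjusted p up to 0.0876). It held without control 2 and without knockdown 3. It was also lost under the equal-variance test (0.130), the 18S covariate (0.338) and knockdown arrays 1 and 2 only (0.115). It held with the replicate block (0.0286), median centring (0.0222), an intensity trend (0.0355), dim probe sets left out (0.0310), array weights (0.0224) and the actin covariate (0.0107). Over probe sets HES4 had 0.48 with the 18S covariate and did not pass (adjusted p = 0.441). With arrays centred on their median it was 0.43 and passed over probe sets (adjusted p = 0.0423). It also passed over probe sets with array weights (0.0440), dim probe sets left out (0.0479) and the actin covariate (0.0251).

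HES5, an effector best known in neural progenitors, was dim. It read 4.85, 4.74, 4.66 and 4.68 in the controls and 4.36, 4.64, 4.72 and 4.57 in the knockdown arrays. Of the 17 liver, pancreas, muscle and skin probe sets 8 were above it, 3 of them for KRT10. Knockdown 3 lay inside the control range and the other knockdown arrays below it. The difference of -0.16 ± 0.09 (SE) did not pass (adjusted p = 0.277), and without knockdown 1 it was -0.09.

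The HEY genes, known as NOTCH effectors of heart and blood vessels, were dim as well, apart from 1 HEYL probe set. HEY2 222921_s_at read 4.75, 4.83, 4.71 and 4.77 in the controls and 5.10, 4.98, 5.02 and 4.88 in the knockdown arrays, the other member probe set whose groups did not overlap. Its difference was 0.23 ± 0.07 (SE; confidence interval 0.07 to 0.39; adjusted p = 0.0586 over probe sets and 0.0391 over genes). Over genes, the HEY2 call was lost for 7 of the 8 arrays left out in turn (adjusted p up to 0.111), and it held without knockdown 4. It was also lost with the 18S covariate (0.225), the actin covariate (0.0690), the replicate block (0.0808) and knockdown arrays 1 and 2 only (0.0772). It held with median centring (0.0203), the equal-variance test (0.0391), an intensity trend (0.0432) and array weights (0.0298). The second HEY2 probe set, 219743_at, spanned 3.60 to 4.04 and had a difference of 0.15 (adjusted p = 0.321), and the pair did not differ in response beyond its spread (0.09, confidence interval -0.14 to 0.31). The mean of 222921_s_at, 4.88, was under 8 of the 17 probe sets of genes the line should lack, 3 of them for the bright KRT10.

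HEYL 220662_s_at read 6.27, 6.39, 6.36 and 6.23 in the controls and 5.78, 6.13, 6.22 and 6.24 in the knockdown arrays. Knockdown 1 stood lowest and knockdown 4 lay inside the control range, and the difference of -0.22 ± 0.11 (SE) did not pass (adjusted p = 0.212). Without knockdown 1 it was -0.11. The other HEYL probe set, 226828_s_at, had 0.10 (adjusted p = 0.434). Between the pair the response differed by -0.32, with a confidence interval of -0.55 to -0.08, and did not pass over all pairs (adjusted p = 0.0782). HEY1 lay between 4.99 and 5.43 on 218839_at and between 4.70 and 4.92 on 44783_s_at. Its differences of -0.13 and 0.08 had opposite signs and neither passed (adjusted p = 0.371 and 0.539). The pair differed in response by -0.21 (confidence interval -0.43 to 0.01; adjusted p = 0.181).

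**Figure D3:**
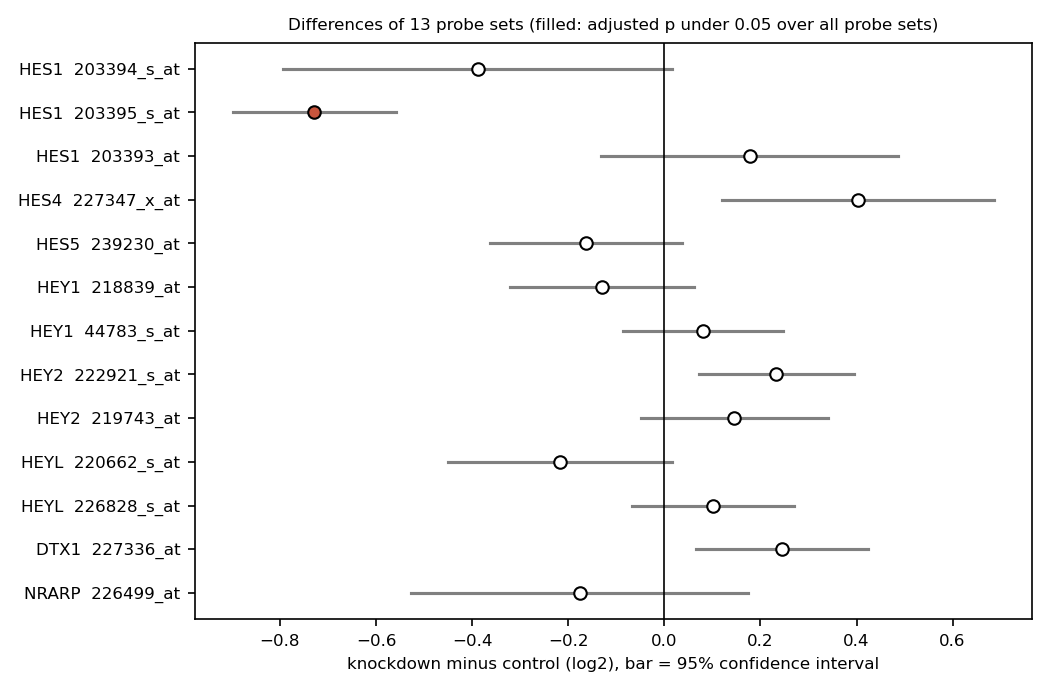
Knockdown minus control on the log2 scale (x axis) for each of the 13 probe sets, with 95% confidence intervals; filled points passed over all probe sets. HES1 203395_s_at, at -0.73, is the filled point, and the intervals of HES4, HEY2 222921_s_at and DTX1 lie above 0.

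DTX1 read 5.59, 5.69, 5.59 and 5.53 in the controls and 5.95, 5.67, 5.92 and 5.85 in the knockdown arrays. Knockdown arrays 1, 3 and 4 lay above all controls, and knockdown 2 lay inside their range. The difference was 0.25 ± 0.08 (SE; confidence interval 0.07 to 0.42; adjusted p = 0.0699 over probe sets and 0.0463 over genes), a level 119% of the control. It passed over probe sets without knockdown 2 (0.30, adjusted p = 0.0344), and the 18S covariate gave 0.22 (adjusted p = 0.599). Over genes, the DTX1 call was lost for 7 of the 8 arrays left out in turn (adjusted p up to 0.114), and it held without knockdown 2. It was also lost under the equal-variance test (0.0699), an intensity trend in the prior variance (0.0559), the replicate block (0.0911), the 18S covariate (0.512), the actin covariate (0.114) and knockdown arrays 1 and 2 only (0.244). It held with median centring (0.0240), array weights (0.0309) and dim probe sets left out (0.0350). Of the 17 probe sets of genes the line should lack, 4 lay above DTX1, 3 of them for the bright KRT10.

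NRARP, whose transcription follows NOTCH activity as negative feedback, read 6.24, 6.73, 6.92 and 6.66 in the controls and 6.13, 6.40, 6.75 and 6.58 in the knockdown arrays. The groups overlapped, with array 1 the lowest of each. The difference of -0.18 ± 0.16 (SE; confidence interval -0.53 to 0.18) did not pass (adjusted p = 0.524). It was -0.06 without knockdown 1, -0.08 without control 3, -0.27 without knockdown 3 and -0.31 without control 1. The 18S covariate moved it to -0.69, and it did not pass there either (adjusted p = 0.239).

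None of the 13 differences changed sign in any alternative in which it was tested. The 19 alternatives ranged from a replicate block to leaving out each array. Some of them leave the difference itself as it is, so no sign could change there. These are the replicate block, the equal-variance test, the intensity trend, the dim filter, the series' value table and 1 probe set per gene. Under the 18S covariate no member passed (0 of 13, beside 48 of 54613 probe sets). Differences there were smaller for HES1 203395_s_at (-0.67), HEY1 44783_s_at (0.01), HEYL 226828_s_at (0.03) and DTX1 (0.22). They were larger for the rest, among them NRARP (-0.69), HES1 203393_at (0.67), HES1 203394_s_at (-0.61), HEYL 220662_s_at (-0.52) and HES5 (-0.33). With arrays centred on their median, 3 members rose and 1 fell, where the values as deposited gave 0 and 1; of all probe sets 10.1% then rose and 4.56% fell. Of all calls 68.8% were then rises, beside 60.3%.

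**Figure D4:**
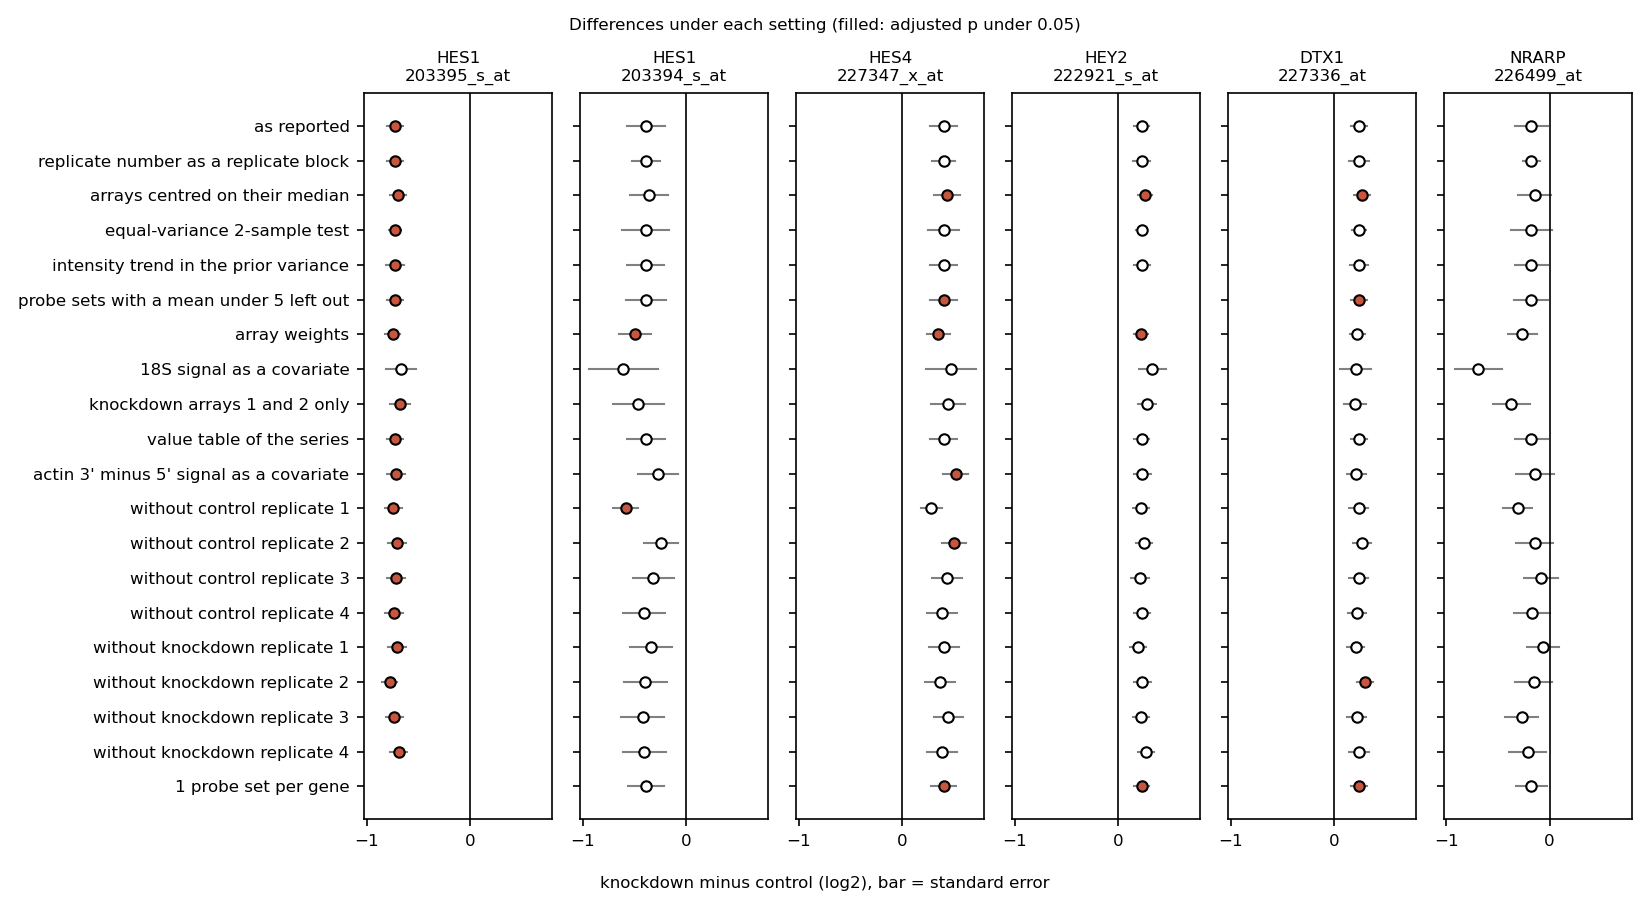
Knockdown minus control on the log2 scale (x axis, bars are standard errors) of 6 probe sets under the reported setting and each alternative (rows); filled points have adjusted p under 0.05. HES1 203395_s_at is filled in all rows where it was tested but the 18S covariate, where it is -0.67, and HES4 is filled in 6 rows.

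Other genes that NOTCH is known to drive in T-ALL did not share one direction. Of 18 on a list that leaves out the effectors, 4 fell, 2 rose and 12 did not pass, beside 7.37% of all genes that fell and 14.7% that rose, and the median was -0.08 beside 0.03 over all genes. The lists were chosen with earlier results known, so these counts are descriptions. CD44, a hyaluronan receptor, fell by 0.98 ± 0.09 (SE; adjusted p = 7.98e-05), and MYC, the growth-promoting transcription factor, fell by 0.86 ± 0.10 (adjusted p = 0.000235). IL7R, the interleukin 7 receptor, fell by 0.68 and IGF1R, a growth factor receptor, by 0.47. CCND3, a G1 cyclin, rose by 0.40 with groups that overlapped (adjusted p = 0.0428). TASP1, the protease that cleaves MLL, rose by 0.25. NOTCH3, itself a NOTCH1 target, had 0.17 ± 0.09 and did not pass (adjusted p = 0.218). Among these 18 genes CD44 passed with the 18S covariate (-0.84, adjusted p = 0.0398). MYC (-0.50), IL7R (-0.42), IGF1R (-0.22) and TASP1 (0.28) kept their sign in that fit and did not pass. CCND3 changed sign there (-0.12) and did not pass.

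Of 25 receptors, ligands and processing genes, 3 rose, 3 fell and 19 did not pass, with a median of 0.02; the share called is close to the 22.1% of all genes. Among those that rose were NCSTN (0.57 ± 0.12, SE; adjusted p = 0.00658) and PSENEN (0.42 ± 0.09; adjusted p = 0.00651), which encode subunits of γ-secretase. The subunit APH1A had 0.02 (adjusted p = 0.915). NUMBL, a Numb-like adaptor, fell by 0.56, LFNG, a glycosyltransferase that modifies NOTCH, by 0.30, and NOTCH2 by 0.24. NOTCH1 went from 9.65 ± 0.13 to 9.57 ± 0.06 (SD, n = 4), a difference of -0.08 that did not pass (adjusted p = 0.538). With the 18S covariate 0 of the 25 passed. The differences in that fit were 0.14 for NCSTN, -0.08 for NUMBL and -0.08 for LFNG, smaller than without it. PSENEN had 0.33 and NOTCH2 -0.22 there.

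The transcription complex and its corepressors gave 5 rises and 4 falls among 23 genes, beside 14.7% and 7.37% of all genes, with a median of 0.04. RBPJ, the DNA-binding partner of NOTCH, was level at 11.28 ± 0.05 and 11.27 ± 0.05 (SD, n = 4; adjusted p = 0.987). MAML1, a Mastermind coactivator, rose by 0.36 ± 0.07 (SE, adjusted p = 0.00352) from a control mean of 8.79. MAML3, lower at 5.98 in the controls, fell by 0.40 ± 0.08 (adjusted p = 0.00358). The acetyltransferase KAT2B rose by 0.80 and CREBBP fell by 0.27. AES, a short TLE family protein, rose by 0.66. TLE1, TLE2, TLE3 and TLE4, through which HES proteins repress, had differences from -0.10 to 0.17, none of which passed. The corepressor CTBP1 rose (0.38, from a control mean of 11.45) and CTBP2 fell (-0.25, from a dim 5.40). HDAC1 rose by 0.27, and FHL1, whose short form binds RBPJ, fell by 0.78 (adjusted p = 0.000546). Of the 9 called, FHL1 passed with the 18S covariate (-0.91, adjusted p = 0.0499). In that fit CTBP1 (0.10), AES (0.23), HDAC1 (0.22) and MAML1 (0.32) had smaller differences. KAT2B (0.90), CREBBP (-0.36), CTBP2 (-0.33) and MAML3 (-0.49) had larger ones.

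Relatives of the members outside the direct effectors gave 3 falls and no rise among the 9 measured, beside 7.37% and 14.7% of all genes. HES6, which opposes HES1 in the mouse, went from 10.43 ± 0.05 to 9.97 ± 0.08 (SD, n = 4), a fall of 0.46 ± 0.07 on the log2 scale (SE; adjusted p = 0.00108). BHLHE40, a circadian and stress-linked repressor, fell by 0.42 and DTX4, a Deltex relative, by 0.40. DTX2, DTX3 and DTX3L had 0.17, 0.24 and 0.12 and did not pass.

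**Figure D5:**
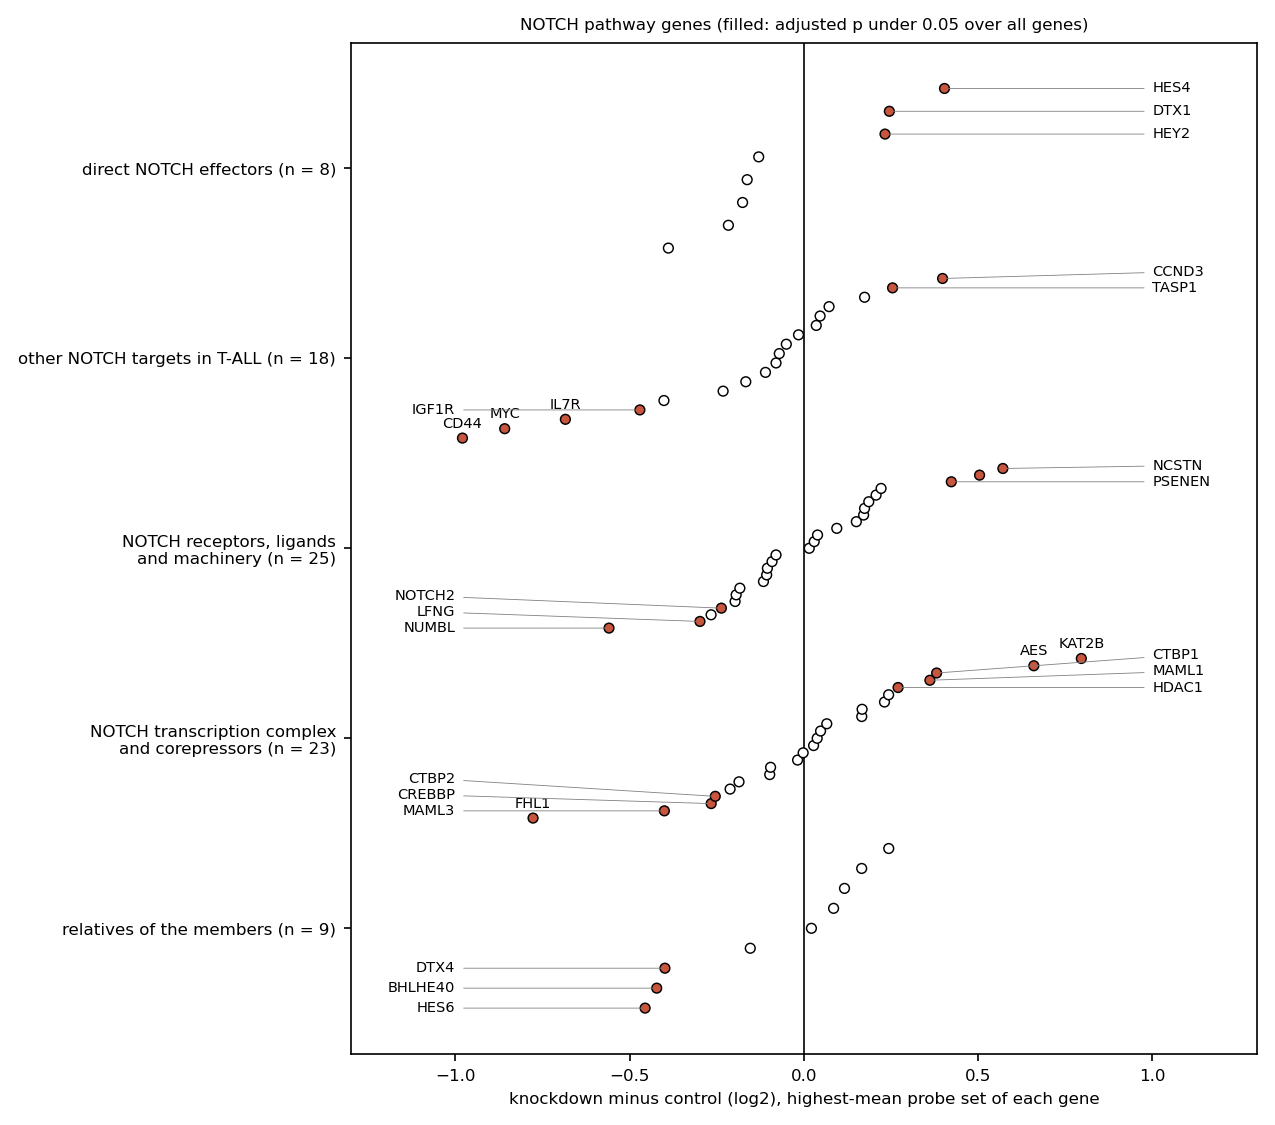
Knockdown minus control on the log2 scale (x axis) of each gene's highest-mean probe set, in rows by gene list; a dot is a gene, and filled dots, most with their names, passed over 20307 genes. In the row of 18 other NOTCH targets, 4 fell and 2 rose, while in the row of 9 relatives the 3 named genes fell.

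Probe sets with the most similar course over the 8 arrays, after each group's mean was removed and among those of other genes with a mean of at least 7, are given as a description. For HES1 203394_s_at they were NEAT1 (r = 0.990), HCST (0.989) and ATP5J2 (0.987), out of 14755 compared. For HES4 they were MACF1 (0.973), PRPF4B and GKAP1 (both 0.970), for DTX1 they were TPRN (0.952), CHRNB2 (0.945) and ORAI2 (0.931), and for NRARP they were ERCC2 (0.989), TNNT1 and NUDT21 (both 0.985). The 8 arrays are shared by all these values, and with so few points 1 array can carry such an r. Of these 12 probe sets, HCST (0.68), ATP5J2 (0.42) and GKAP1 (0.68) rose and ORAI2 fell by 0.47 between the groups, while the remaining 8 did not pass.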

How the data were processed

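The authors deposited log2 values for 54675 probe sets on 8 Affymetrix HG-U133 Plus 2.0 arrays, made with RMA per the submitters' processing notes, with no version named there. RNA was labelled from its 3' end, per the labels' protocols. The deposited workbook repeats these log2 values (largest difference 5.0e-09) and adds a p-value of a 2-sample test and a ratio (fold change), both computed by the authors, per the file headers. The workbook's symbols date from its own annotation, and the 41479 probe sets with a single symbol were used under it.

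Knockdown minus control was fitted with limma 3.58.1 in R 4.3.3 (lmFit, eBayes, two-sided) on all probe sets but 62 manufacturer's controls, with Benjamini-Hochberg adjustment over all of them and a threshold of 0.05. Within-gene pairs and single genes were fitted the same way over the whole table. Single values were compared by an exact two-sided permutation test. Errors are SD over 4 arrays or limma's SE, and intervals are at 95%. Arrays give no counts, so their number limits precision. The fit was tested on simulated data. Named list genes are those past the threshold, up to 4 in each direction per list, with NOTCH1, NOTCH3, RBPJ and MAML1; 1 gene that meets this rule is not reported here. APH1A, HDAC1, TLE1 to TLE4, DTX2, DTX3, DTX3L and the marker genes were named after their values were seen. Members and lists were chosen with earlier results of these data known. Per the submitters' design text the replicates are biological and not paired. Alternatives were a replicate block, median centring, an equal-variance test, an intensity trend, a filter on dim probe sets, array weights, an 18S covariate, knockdown arrays 1 and 2 only, the series' value table and each array left out; the actin covariate and 1 probe set per gene were added after seeing the data.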

Additional observations from a re-analysis of the deposited data

Results flagged for a closer look

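In 5 of 100 groups of 4 arrays examined, 1 array stood apart from the other 3 by more than Dixon's 95% limit, which chance gives in about 1 in 20 groups. Control replicate 1 stood apart for IL7R (8.37, beside 7.43 to 7.52 in the other controls) and for IGF1R (9.18, below the others). Knockdown replicate 3 was low for LFNG (5.53), and knockdown replicate 2 was low for MAML3 (5.49). For HEYL, the difference between probe sets 220662_s_at and 226828_s_at was smallest in knockdown replicate 1 (1.45, beside 1.76 to 1.81 in the other knockdown arrays).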

How the results depend on the processing

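Of 236 probe set differences recomputed under 19 alternatives, 220 kept their direction and their side of the threshold. Of the rest, 15 passed where they had not, 1 no longer passed and 0 changed sign. Alternatives such as the replicate block and the equal-variance test leave the difference as it is, so a sign could not change in them. The number of member probe sets past the threshold was 1 as reported. It was 4 with arrays centred on their median (14.6% of all probe sets called) and 4 with array weights (20% of all). With probe sets of a mean under 5 left out it was 3 of the 7 still tested (27% of all). With 1 probe set per gene it was 3 of 8 (22.1% of all genes). It was 2 with the actin covariate (10.1% of all) and 0 with the 18S covariate (0.0879% of all). With single arrays left out it ranged from 1 to 2, beside 8.13% to 13.6% of all. The number of within-gene pairs called, 1 as reported, was 2 with the replicate number as a block, where HES1 203394_s_at against 203393_at joined (adjusted p = 0.0419), and 0 with the equal-variance test, with dim probe sets left out (which removes 203393_at itself), with the 18S covariate and with knockdown arrays 1 and 2 only. The called list genes fell with the 18S covariate from 6 to 1 for the other NOTCH targets, from 6 to 0 for receptors and machinery, from 9 to 1 for the transcription complex and from 3 to 0 for the relatives. The causes were not tested. ZMIZ1 passed throughout (-1.44 to -1.15). Over genes, the replicate block gave HEY2 an adjusted p of 0.0808 and DTX1 0.0911, and HES4 passed (0.0286). The replicate block left the members' count over probe sets at 1 and took all calls from 7592 to 6698; same-numbered arrays deviated together with r from -0.09 to 0.06, and 4 of 8 correlated best with their own number. Over all probe sets, calls numbered 3910 with the equal-variance test, 1943 with knockdown arrays 1 and 2 only, 48 with the 18S covariate, 4454 without control 3, 4788 without knockdown 3 and 4438 without knockdown 4. RMA gives no detection call, so dim probe sets have no measured background here.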
